A study of Homo sapiens with 9 samples.

Results

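The genes described here lie on the short arm of human chromosome 10 (10p) and were lower in irradiated derivatives of the U87 line than in U87 itself. They are 50 named genes of the 60606 in the deposited table, and they were selected on their expression values in GSCs and Diff cells against U87, from a stretch of 10p that an earlier reading of these data had found lower. The differences from U87 are therefore given as a description, without a test. The comparison of both irradiated lines with each other took no part in the selection and is tested. A total of 46 genes had a mean above 1 TPM (transcripts out of 1000000) over all libraries. The other 4, FAM107B, CACNB2, PLXDC2 and MPP7, are only listed. CDNF, at a mean of 1.31 TPM, lay just above that level and FAM107B, at 0.726 TPM, just below it.

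RNA was sequenced from 3 cell populations with 3 libraries each. U87, an established line of human glioblastoma cells, was the wild-type parent. GSCs are radioresistant glioblastoma stem cells that were derived from U87, irradiated in repeated cycles and grown in serum-free medium with EGF and bFGF. Diff cells are the radioresistant cells obtained when GSCs were differentiated in medium with serum and cells from selected clones were cultured. U87 was grown in medium with serum as well. Both irradiated populations share 1 lineage. Irradiation, derivation as stem cells and culture medium cannot be told apart in GSCs against U87. In Diff cells against U87, irradiation, passage through the stem cell state and clonal selection cannot be told apart. In Diff cells against GSCs, differentiation, medium and clonal selection cannot be told apart. The labels do not say whether the 3 libraries of a group came from separate cultures, and p-values measure only the spread between libraries.

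The short arm of chromosome 10 carries housekeeping genes of many pathways, with no common function. Loss of chromosome 10, as a whole or in part, is a frequent copy number change in glioblastoma. The genes on the list include KIF5B, the heavy chain of the kinesin-1 motor, GDI2, which recycles Rab GTPases, MASTL, the mitotic kinase known as Greatwall, MCM10, a DNA replication initiation factor, SUV39H2, a histone H3 lysine 9 methyltransferase, and KLF6, a zinc finger transcription factor. DNA copy number was not measured in these libraries.

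Each value is an average over the RNA of all cells in a culture, so fewer expressing cells and less RNA per cell cannot be told apart. Between 25.9% and 31.8% of all TPM fell on mitochondrial genes and between 5.73% and 9.79% on RN7SL1, a noncoding RNA. TPM keeps no sequencing depth, so counting error is unknown, and the spread between libraries is the only error given. GSCs replicate 3 stood slightly apart, since the SD of its log2 differences from the other GSCs libraries was 0.399 and 0.422, against 0.325 to 0.344 for every other pair of replicates. Of 7 stemness markers, PROM1 and SOX2 were below 1 TPM in all 9 libraries, although their means were highest in GSCs, at 0.507 and 0.879 TPM against 0.171 and 0.0383 TPM in U87. FABP7 had 4.91 TPM in GSCs against 0.731 TPM in U87, OLIG2 8.75 against 7.27 TPM and NES 22.6 against 33.0 TPM, and the sum of the list was 40.3 to 44.6 TPM in U87, 36.6 to 41.4 TPM in GSCs and 22.4 to 23.9 TPM in Diff cells. Markers of other cell types also moved. The 3 endothelial markers summed to 2.66 to 4.41 TPM in U87, 16.4 to 18.9 TPM in GSCs and 4.13 to 5.55 TPM in Diff cells, mainly through VWF, at 0.527 TPM in U87 and 11.4 TPM in GSCs. The 5 neuronal markers summed to 23.8 to 28.9, 15.5 to 16.3 and 33.4 to 35.5 TPM in U87, GSCs and Diff cells, the 3 astrocyte markers to 2.08 to 2.65, 0.862 to 1.06 and 1.34 to 1.91 TPM, and the 5 mesenchymal markers to 4204 to 4429, 3191 to 3398 and 4250 to 4821 TPM. Within the neuronal and mesenchymal lists, genes moved in opposite directions. MAP2 had 7.95 TPM in U87 and 21.7 TPM in Diff cells, SNAP25 14.5 and 7.5 TPM, and DCX and RBFOX3 stayed below 1 TPM. CHI3L1 had 107 TPM in U87 and 1809 TPM in Diff cells, and VIM 1640 and 616 TPM. TGFBI had 795 TPM in U87, 66.0 TPM in GSCs and 541 TPM in Diff cells. The 3 leukocyte markers summed to between 1.501 and 2.91 TPM in all libraries. The part of these markers' cell types in the results was not tested. VIM, on the list of mesenchymal markers, itself lies on 10p.

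Nearly all of the 46 genes were lower in both irradiated lines. All 3 GSCs libraries lay below all 3 U87 libraries for 44 genes, and the same held for Diff cells with 44 genes, while 43 genes were separated in both. Over all 22909 genes tested, 26.6% were separated downward from U87 in GSCs, 29.0% in Diff cells and 18.1% in both. These counts follow from how the genes were selected, and nothing is read from them. The exceptions were PHYH and CDNF in GSCs and PHYH and OPTN in Diff cells.

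The size of the difference was similar in GSCs and Diff cells. On the log2(TPM + 1) scale the median difference from U87 was -0.88 in GSCs, with quartiles at -1.16 and -0.54, and -0.88 in Diff cells, with quartiles at -1.14 and -0.74. The median over all genes tested was 0.02 in GSCs and -0.04 in Diff cells. Expressed as TPM, the median gene stood at 53.1% of its U87 mean in GSCs and at 52.7% in Diff cells. Between 40% and 70% of the U87 level were 27 genes in GSCs and 36 in Diff cells. A log2 difference under -1 was found for 15 genes in GSCs and 20 in Diff cells. The libraries of a group were close to each other, with medians against the U87 mean of -0.84, -0.95 and -0.87 in Diff cells and -0.92, -0.95 and -0.68 in GSCs. The smallest of these belonged to GSCs replicate 3, and without that library the GSCs median was -0.96. When TPM was recomputed without mitochondrial genes and RN7SL1, the medians were -0.92 in GSCs and -0.85 in Diff cells.

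**Figure D1:**
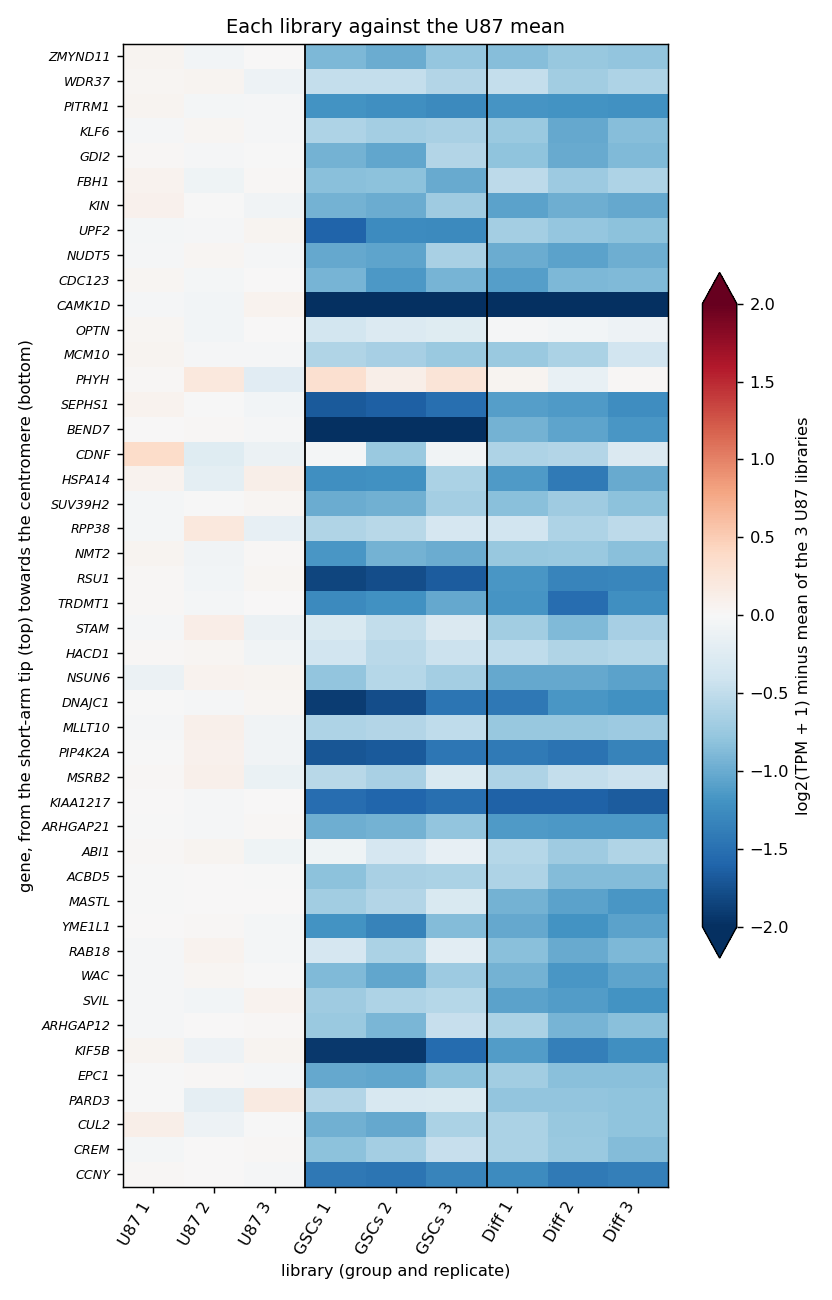
Log2(TPM + 1) of 46 genes (rows) in 9 libraries (columns), each minus the mean of the 3 U87 libraries, with blue for lower and red for higher values and the colour scale ending at 2 in either direction. Rows run roughly from the tip of 10p to the centromere, with a few close neighbours out of order. Nearly every row is blue in all 6 irradiated libraries, PHYH and OPTN are close to white in Diff cells, and CAMK1D is the darkest row.

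Neighbouring genes that are not on the list were lower as well. They lie on the arm that an earlier reading of these data had found lower. Their counts and medians, also along the arm, are therefore a description and no independent support. Of the other genes of 10p with a mean above 5 TPM, 36 were protein-coding, and their median log2 difference from U87 was -0.79 in GSCs and -0.89 in Diff cells. All 3 irradiated libraries lay below U87 for 27 of these in GSCs (75.0%) and for 34 in Diff cells (94.4%), beside 33.2% and 33.3% of the 9269 protein-coding genes above the same level outside chromosome 10. One of the 36, listed under the identifier ENSG00000284024, is annotated as a second HSPA14 locus and overlaps the HSPA14 of the list, whose exonic bases it and other genes of the same strand cover to 17.4%. The other 30 genes, of types such as pseudogenes and noncoding RNAs, had medians of -0.66 and -1.04. Across the centromere, the 286 protein-coding genes of the long arm had medians of -0.02 in GSCs and 0.02 in Diff cells, with 34.3% and 30.8% of them separated downward. Among the 22 other chromosomes examined, the median ranged from -0.08 to 0.47 in GSCs and from -0.07 to 0.48 in Diff cells, with chromosome 7 the highest in both.

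Along the arm, every bin of 5 Mb on 10p had a negative median in both irradiated lines. In Diff cells the bin medians lay between -1.14 and -0.76. In GSCs they ran from -1.01 to -0.27, and the 2 bins nearest the centromere had -0.45 for 19 genes and -0.27 for 7 genes of all types, where Diff cells had -1.14 and -0.88. For protein-coding genes alone the same bins had -0.72 and -0.33 in GSCs and -0.80 and -0.81 in Diff cells, so that the first of them no longer stood out beside -0.55 at 15 to 20 Mb and -0.63 at 25 to 30 Mb. The first bin beyond the centromere held 5 genes, with medians of 0.13 in GSCs and 0.03 in Diff cells. GENCODE 29 on GRCh38 leaves 3366202 bases without a gene between both arms, from 38783108 to 42149310 on chromosome 10.

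The 5 largest falls among the 66 other genes of the arm with a mean above 5 TPM exceeded those of most of the 46. NRP1, a co-receptor for VEGF and semaphorins, had 271.0, 266.1 and 266.5 TPM in U87, 68.8, 71.7 and 84.6 TPM in GSCs and 85.3, 79.2 and 77.5 TPM in Diff cells, differences of -1.83 and -1.72 from U87. PFKP, the platelet type of phosphofructokinase, was at 29.6% of U87 in GSCs and 31.2% in Diff cells. The pseudogene AK3P5 was at 39.3% and 27.9%. The small RNA copies RN7SL398P and RNU6-946P were also among these 5 falls, but their libraries scattered widely and they resemble many other copies in the genome.

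The 5 other genes of the arm with the smallest fall or a rise, again among those with a mean above 5 TPM, included 3 that lay above all U87 libraries in GSCs. FZD8, a Wnt receptor, had 4.62, 6.23 and 3.16 TPM in U87, 70.6, 71.5 and 72.9 TPM in GSCs and 15.3, 13.2 and 13.2 TPM in Diff cells. JCAD, a junctional protein, was at 633% of U87 in GSCs and 393% in Diff cells. IDI1, an enzyme of isoprenoid and cholesterol synthesis, was above U87 in all 3 GSCs libraries, at 174% of its mean, and below U87 in all 3 Diff libraries, at 50.3%. The remaining genes of the 5 were close to U87, with differences of 0.08 in GSCs and -0.19 in Diff cells for ASB13 and of 0.01 and -0.32 for RNU6-88P.

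**Figure D2:**
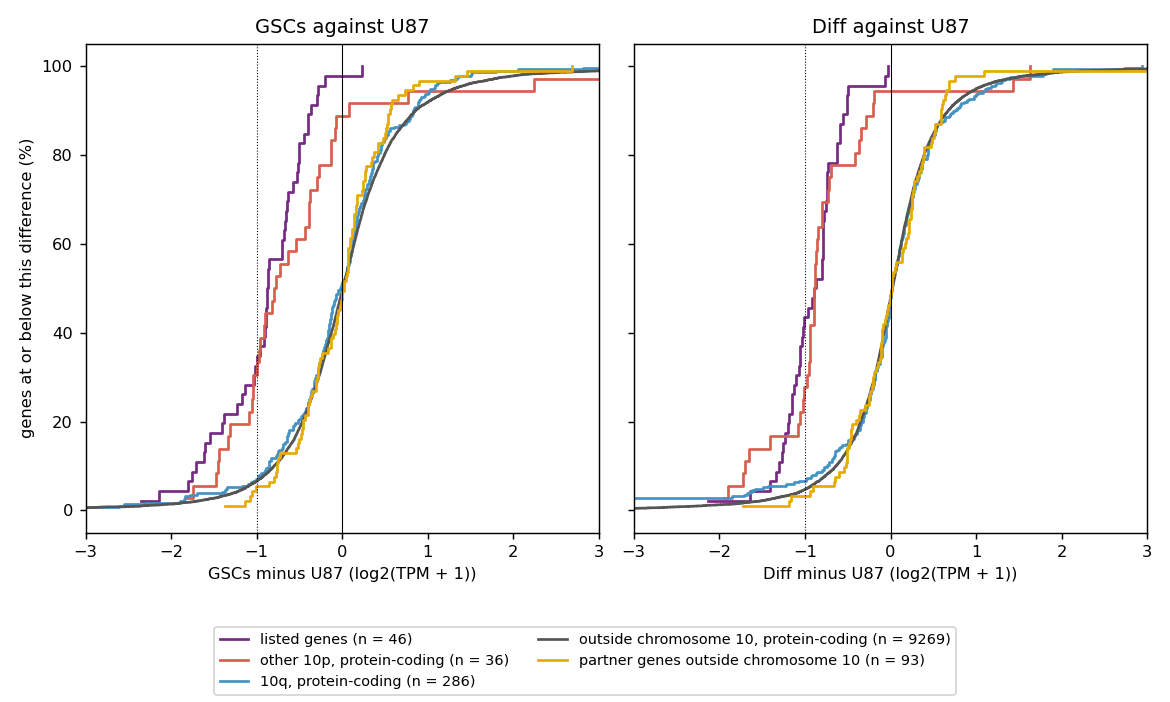
Cumulative share of genes (vertical axis, %) at or below a given log2(TPM + 1) difference from U87 (horizontal axis) in GSCs (left) and Diff cells (right) for the 46 genes, other protein-coding genes of 10p, protein-coding genes of 10q and of other chromosomes, and partner genes of the list outside chromosome 10. Both 10p curves cross 50% near -0.9 to -0.8 and the other 3 curves near 0.

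Transport, adhesion and cytoskeletal genes formed a group of 13, all of them separated downward from U87 in both irradiated lines. Their differences ran from -1.80 to -0.20 in GSCs and from -1.64 to -0.59 in Diff cells. Counts in this and the following role groups follow from how the genes were selected, and nothing is read from them. Of all genes tested, 26.6% were separated downward in GSCs, 29.0% in Diff cells and 18.1% in both. KIF5B had 133.8, 120.8 and 134.2 TPM in U87, 33.2, 33.3 and 43.7 TPM in GSCs and 58.8, 49.4 and 55.0 TPM in Diff cells. The 3 groups did not overlap, and GSCs were the lowest. GDI2, with the highest mean level of the 46 genes, had 136.5, 132.0 and 133.7 TPM in U87, 69.0, 64.6 and 89.1 TPM in GSCs and 76.1, 66.4 and 72.4 TPM in Diff cells, so the irradiated lines overlapped with each other and not with U87. ARHGAP21, a GTPase-activating protein, had 99.0, 97.6 and 101.0 TPM in U87, 50.0, 50.9 and 56.8 TPM in GSCs and 44.5, 44.0 and 44.3 TPM in Diff cells. Diff cells were lowest there.

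RSU1, which binds the integrin-linked PINCH complex, stood at 107.1, 101.2 and 108.6 TPM in U87, 29.0, 30.1 and 32.5 TPM in GSCs and 46.7, 41.9 and 42.1 TPM in Diff cells. SVIL, the actin-binding protein supervillin, was at 48.9, 47.8 and 52.2 TPM in U87, 30.0, 32.1 and 33.0 TPM in GSCs and 23.1, 22.4 and 21.2 TPM in Diff cells. Both genes separated all 3 groups, but in opposite order of the irradiated lines. PARD3, a scaffold of cell polarity, had 20.7, 18.1 and 23.7 TPM in U87, 13.5, 16.5 and 16.7 TPM in GSCs and 11.6, 11.5 and 11.5 TPM in Diff cells. ABI1, a subunit of the WAVE complex that drives actin branching, had 53.1, 54.6 and 49.2 TPM in U87, 49.0, 41.0 and 46.5 TPM in GSCs and 35.0, 31.6 and 34.2 TPM in Diff cells. Its highest GSCs library almost reached its lowest U87 library, whereas Diff cells stood clearly below. RAB18, a GTPase of lipid droplets and the endoplasmic reticulum, was at 75.0% of U87 in GSCs and 49.9% in Diff cells. KIAA1217 was among the 4 largest differences, with 70.8, 68.9 and 70.7 TPM in U87, 23.6, 22.6 and 24.1 TPM in GSCs and 22.1, 22.1 and 21.4 TPM in Diff cells.

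The 7 genes of DNA replication, repair and the cell cycle all lay below U87 without overlap, with medians of -0.88 in GSCs and -0.96 in Diff cells. MCM10 had 12.3, 11.7 and 11.7 TPM in U87, 7.48, 7.09 and 6.68 TPM in GSCs and 6.68, 7.31 and 8.84 TPM in Diff cells. MASTL, which restrains the phosphatase PP2A-B55 at mitotic entry, had 11.8, 11.9 and 11.9 TPM in U87, 6.95, 7.55 and 9.40 TPM in GSCs and 5.66, 5.10 and 4.70 TPM in Diff cells, with no overlap between the groups. CCNY, a membrane-bound cyclin, was at 37.1% of U87 in GSCs and 38.8% in Diff cells. CUL2, the scaffold of the VHL ubiquitin ligase, was at 51.8% and 57.3%, and FBH1, a helicase that limits homologous recombination, at 51.7% and 63.1%.

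Chromatin and transcription genes were also all below U87, 8 of 8 in both lines. SUV39H2 had 13.5, 13.8 and 14.2 TPM in U87, 6.48, 6.64 and 8.27 TPM in GSCs and 7.27, 8.09 and 7.35 TPM in Diff cells. KLF6 had 45.3, 46.8 and 45.3 TPM in U87, 29.5, 28.2 and 28.8 TPM in GSCs and 27.1, 21.9 and 24.9 TPM in Diff cells. BEND7, a BEN domain protein, showed a far larger difference in GSCs, with 4.26, 4.28 and 4.11 TPM in U87, 0.130, 0.208 and 0.198 TPM in GSCs and 1.70, 1.51 and 1.33 TPM in Diff cells. ZMYND11, a reader of methylated histone H3, was at 53.1% and 56.6% of U87, and EPC1, a subunit of the NuA4 acetyltransferase complex, at 46.5% and 53.7%.

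The 4 RNA genes were UPF2, NSUN6, TRDMT1 and RPP38, and all of them were separated downward in both lines. UPF2, a core factor of nonsense-mediated decay, had 26.1, 26.6 and 28.0 TPM in U87, 8.22, 10.7 and 10.5 TPM in GSCs and 16.5, 15.3 and 14.8 TPM in Diff cells, so that Diff cells stood between both other groups. TRDMT1, a tRNA cytosine methyltransferase, was at 36.4% of U87 in GSCs and 31.9% in Diff cells.

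The 14 remaining genes, mainly of protein quality, mitochondria, peroxisomes and metabolism, varied most, from -2.35 to 0.24 in GSCs and from -2.13 to -0.03 in Diff cells. Both lower ends were those of CAMK1D, which was placed in this group though its name does not cover it. Of the 14, 12 were separated downward in each line. CAMK1D, a calcium and calmodulin-dependent kinase, had 4.45, 4.34 and 4.79 TPM in U87, 0.0335, 0.0603 and 0.153 TPM in GSCs and 0.308, 0.236 and 0.238 TPM in Diff cells. It was therefore close to 0 in both irradiated lines, at 1.82% of U87 in GSCs and 5.76% in Diff cells, and its log2 differences of -2.35 and -2.13 understate this because 1 was added to each TPM. The mitochondrial proteases PITRM1 and YME1L1 were at 41.4% and 45.3% of U87 in GSCs and at 42.3% and 45.9% in Diff cells. SEPHS1, a selenophosphate synthetase homologue, was at 31.6% and 43.9%, and DNAJC1, a chaperone of the endoplasmic reticulum, at 24.7% and 36.5%.

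PHYH, the peroxisomal enzyme of phytanic acid breakdown, was the only gene above U87 on average in GSCs, with 21.6, 24.8 and 18.1 TPM in U87, 27.0, 23.3 and 25.8 TPM in GSCs and 22.2, 19.1 and 21.7 TPM in Diff cells. Each irradiated line overlapped with U87, whereas all 3 GSCs libraries lay above all 3 Diff libraries. OPTN, the autophagy receptor optineurin, had 27.5, 25.5 and 26.8 TPM in U87, 20.4, 21.9 and 22.4 TPM in GSCs and 26.1, 25.7 and 24.7 TPM in Diff cells. Diff cells overlapped with U87 and GSCs did not. CDNF, a neurotrophic factor of the endoplasmic reticulum, had the lowest mean level of the 46, with 2.48, 1.27 and 1.49 TPM in U87, 1.62, 0.614 and 1.56 TPM in GSCs and 0.750, 0.802 and 1.21 TPM in Diff cells.

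**Figure D3:**
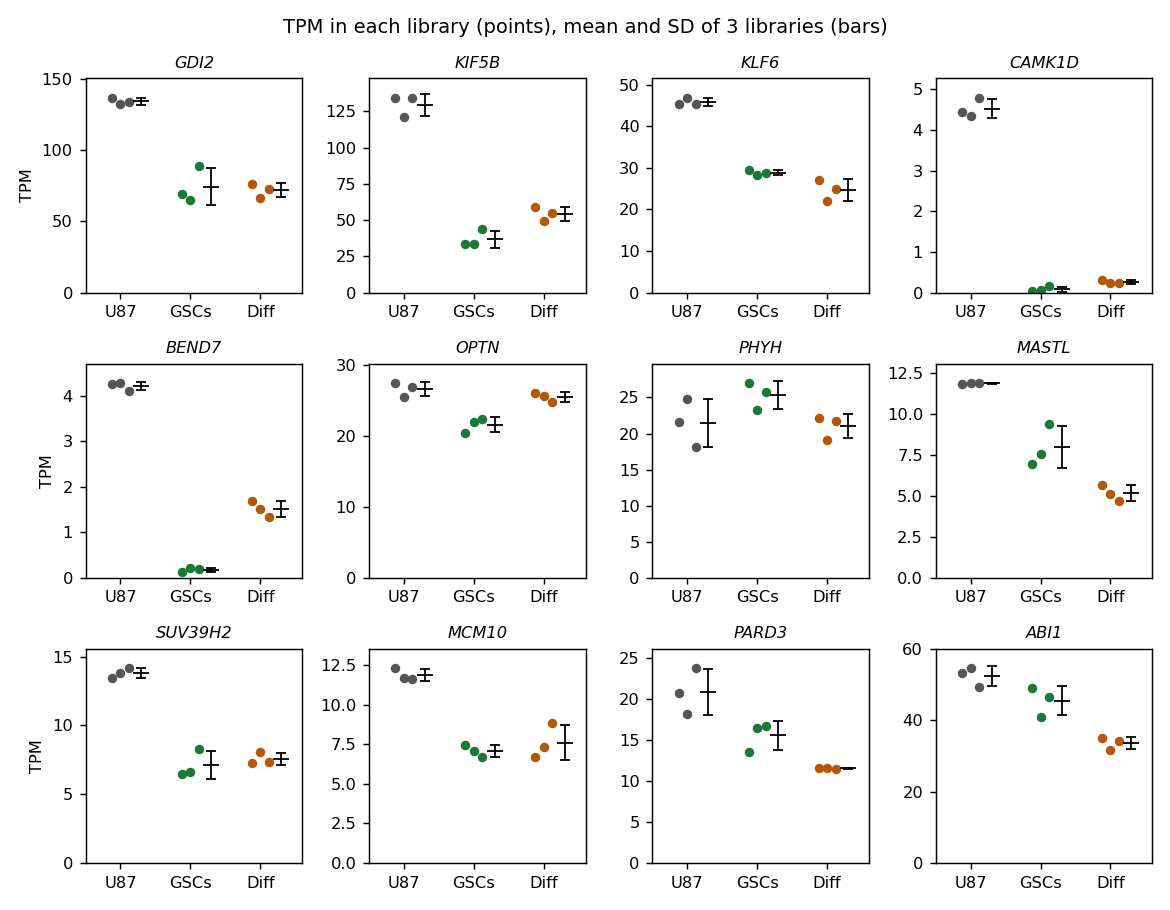
TPM (vertical axis, from 0) of 12 genes in the 3 U87, 3 GSCs and 3 Diff libraries (points), with the mean and SD of each group beside them. GSCs are lowest for KIF5B and BEND7, Diff cells are lowest for MASTL, PARD3 and ABI1, and PHYH shows no separation from U87.

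Several genes on the list start back to back with a neighbour. The start sites of NUDT5 and CDC123 lie within 179 bases of each other on opposite strands, and these genes differed from U87 by -0.91 and -0.999 in GSCs and by -1.01 and -0.96 in Diff cells. YME1L1 and MASTL, with starts 442 bases apart, differed by -1.13 and -0.53 in GSCs and by -1.10 and -1.07 in Diff cells. KIN and its neighbour ATP5F1C had -0.88 and -0.96 in GSCs and -1.02 and -0.72 in Diff cells. WDR37 and IDI1 went apart in GSCs, at -0.51 and 0.76, and were both lower in Diff cells, at -0.59 and -0.95. CDNF and HSPA14, with starts 411 bases apart, differed from U87 by -0.29 and -1.02 in GSCs and by -0.50 and -1.18 in Diff cells. The exons of MASTL, NUDT5, CDC123, PITRM1 and RPP38 overlap genes of the opposite strand over 11.4% to 26.9% of their length, and since the strand setting of the counting is not given in the sources used here, their values may hold reads of the overlapping gene.

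Promoter windows of RefSeq on GRCh38.p14, from 250 bases before to 50 bases after the start, were matched for 46 of the 50 genes. A GC box (GGGCGG or CCGCCC) was present in 63.0% of these windows and in 45.0% of all 35116 windows. A CCAAT box (CCAAT or ATTGG) was present in 34.8% against 34.6%, TATAAA or TTTATA in 0.0% against 11.5%, and the cAMP response element TGACGTCA in 8.7% against 1.85%. The median GC content was 67.0% against 58.7%. These shares describe letters in the windows and were not tested. The windows of 4 genes are shown, 5′ to 3′ on the strand of each gene with GC and CCAAT boxes in capitals, because CDC123 shares its window in part with the divergent NUDT5, MASTL and KIF5B were ordered oppositely in GSCs and Diff cells, and PHYH was not lower than U87. They lie at chr10:12195938-12196237 (CDC123, plus strand), chr10:27155102-27155401 (MASTL, plus strand), chr10:32056376-32056675 (KIF5B, minus strand) and chr10:13299714-13300013 (PHYH, minus strand).
CDC123: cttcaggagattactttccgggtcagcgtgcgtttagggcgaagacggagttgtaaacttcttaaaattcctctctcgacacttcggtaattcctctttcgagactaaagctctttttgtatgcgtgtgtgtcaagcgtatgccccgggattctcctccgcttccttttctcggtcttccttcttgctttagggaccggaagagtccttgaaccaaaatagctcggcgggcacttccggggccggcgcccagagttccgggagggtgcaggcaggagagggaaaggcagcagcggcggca
MASTL: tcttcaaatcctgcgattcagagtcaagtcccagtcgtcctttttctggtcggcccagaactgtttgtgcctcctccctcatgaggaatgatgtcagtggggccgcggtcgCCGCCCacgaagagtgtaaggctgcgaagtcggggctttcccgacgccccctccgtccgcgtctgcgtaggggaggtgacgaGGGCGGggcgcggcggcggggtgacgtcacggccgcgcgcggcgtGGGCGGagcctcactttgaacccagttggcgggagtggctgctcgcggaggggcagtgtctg
KIF5B: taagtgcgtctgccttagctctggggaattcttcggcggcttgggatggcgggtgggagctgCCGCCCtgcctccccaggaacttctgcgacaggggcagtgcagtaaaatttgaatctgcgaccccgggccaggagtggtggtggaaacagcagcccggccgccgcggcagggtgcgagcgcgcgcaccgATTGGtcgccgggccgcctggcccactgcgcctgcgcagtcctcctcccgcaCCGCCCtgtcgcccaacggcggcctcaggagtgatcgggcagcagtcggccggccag
PHYH: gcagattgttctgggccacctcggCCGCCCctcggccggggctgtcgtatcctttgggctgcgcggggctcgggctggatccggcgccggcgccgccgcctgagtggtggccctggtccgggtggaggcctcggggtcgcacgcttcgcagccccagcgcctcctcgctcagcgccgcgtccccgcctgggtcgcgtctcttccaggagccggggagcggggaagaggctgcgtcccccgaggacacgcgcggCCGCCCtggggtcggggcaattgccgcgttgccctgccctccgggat
The windows of MASTL, KIF5B and PHYH held 3, 2 and 2 GC boxes, and that of CDC123 held 0.

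Diff cells were compared with GSCs for all 46 genes, a comparison in which differentiation, serum medium and clonal selection cannot be told apart. Of these genes, 17 differed at an adjusted p below 0.05 (limma over all 22909 genes, Benjamini-Hochberg), 8 higher and 9 lower in Diff cells. That is 37.0% of the genes, beside 34.8% of all genes tested, of which 15.0% were higher and 19.8% lower in Diff cells, so the share was near the background. The median difference was -0.06, equal to that of all genes at -0.06. With quantile normalization the split was 11 higher and 6 lower, and with median-ratio scaling 10 higher and 7 lower. Without Diff replicate 2, 11 genes were called.

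Genes higher in Diff cells than in GSCs were led by BEND7, at 1.09 (SE 0.129, adjusted p = 0.000328 from limma). BEND7 entered the test through its level in U87, and with means of 0.179 TPM in GSCs and 1.51 TPM in Diff cells the added 1 makes its log2 difference understate the ratio of these levels. UPF2 was higher by 0.62 (SE 0.0994, adjusted p = 0.00158 from limma), KIF5B by 0.56 (SE 0.113, adjusted p = 0.00509 from limma) and RSU1 by 0.50 (SE 0.0655, adjusted p = 0.00055 from limma). In each of these 4 genes all 3 Diff libraries exceeded all 3 GSCs libraries, and all 3 Diff libraries lay below all 3 U87 libraries. SEPHS1 was higher by 0.45, DNAJC1 by 0.44, FBH1 by 0.27 and OPTN by 0.23. Of these, the call of FBH1 (adjusted p = 0.0468 from limma) was lost in 14 alternative settings, which is most of them. That of DNAJC1 was lost in 8 and that of OPTN in 3. The settings include leaving out single libraries.

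Genes lower in Diff cells than in GSCs were led by MASTL, at -0.54 (SE 0.116, adjusted p = 0.00716 from limma), and RAB18, at -0.52 (SE 0.114, adjusted p = 0.00769 from limma). RAB18 had 14.3, 15.4 and 14.2 TPM in U87, 11.4, 9.11 and 12.5 TPM in GSCs and 7.76, 6.76 and 7.40 TPM in Diff cells, without overlap. SVIL was at -0.49 (SE 0.0628, adjusted p = 0.00047 from limma) and ABI1 at -0.42 (SE 0.0782, adjusted p = 0.00336 from limma). PARD3 was at -0.40, STAM, a sorting adaptor of ubiquitinated receptors, at -0.39, NSUN6, an RNA cytosine methyltransferase, at -0.36, ARHGAP21 at -0.24 and KLF6 at -0.22. The call of KLF6 (adjusted p = 0.0479 from limma) was lost in 15 alternative settings, again most of them, that of NSUN6 in 9 and that of PARD3 in 6.

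The other 29 genes did not pass the threshold. Their 95% intervals lay within -0.78 and 0.53, so that differences of that size remain possible for some of them. MCM10 differed by 0.08 (interval -0.16 to 0.32), SUV39H2 by 0.08 (interval -0.15 to 0.31) and GDI2 by -0.04 (interval -0.29 to 0.21). CAMK1D is among the 29, but it entered the test through its level in U87 and was below 1 TPM in both irradiated lines, so nothing is read from its difference.

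**Figure D4:**
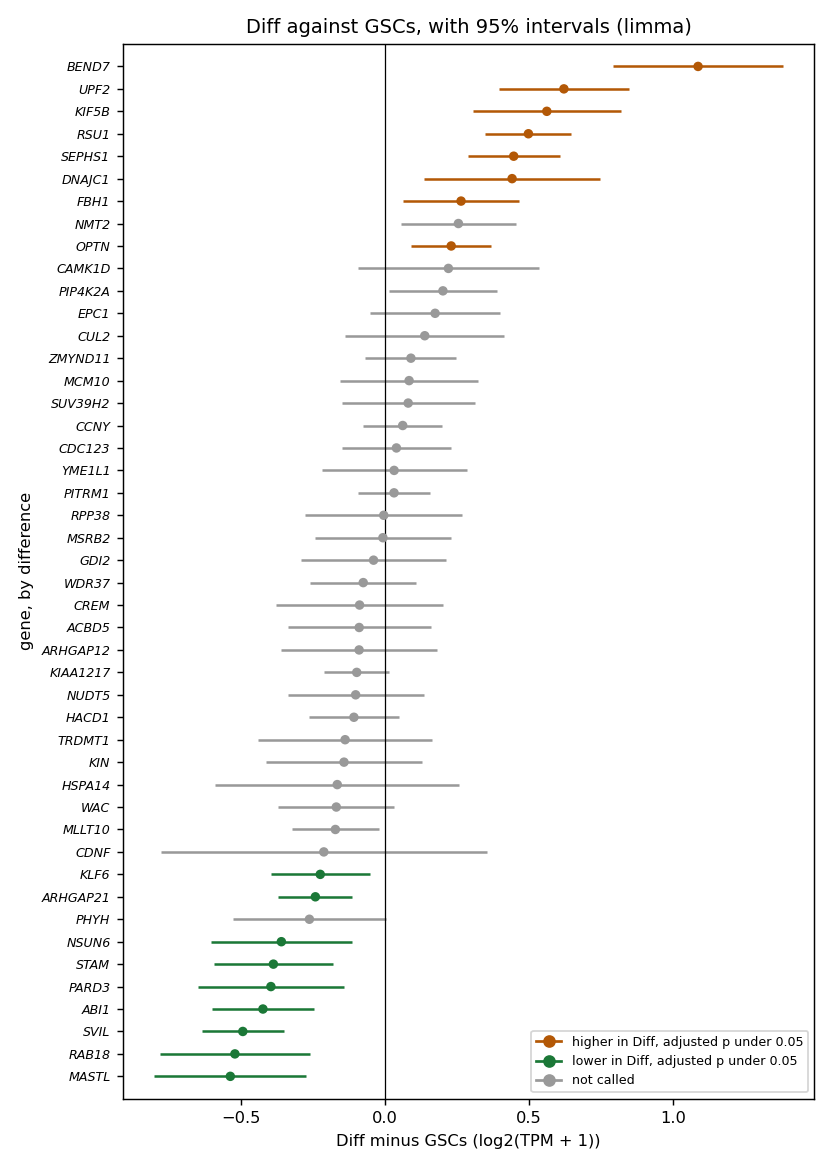
Difference between Diff cells and GSCs in log2(TPM + 1) (horizontal axis) with its 95% interval from limma for 46 genes (vertical axis, by size), in orange for genes called higher, green for genes called lower in Diff cells and grey for genes not called. BEND7 at 1.09, which entered the test through its level in U87, stands apart at the upper end. MASTL at -0.54 is the lowest, and 29 genes are grey.

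Paralogs and known partners of these genes on other chromosomes are not on the list, though they too were chosen with earlier results of these data known, and 93 of 98 had a mean above 1 TPM. Their median difference from U87 was 0.02 in GSCs and 0.01 in Diff cells. In GSCs against U87, 22 rose and 27 fell, 52.7% in all, beside 48.6% of all genes tested (25.3% higher, 23.3% lower; limma). In Diff cells against U87, 30 rose and 22 fell, 55.9% in all, beside 39.4% of all genes (18.9% higher, 20.5% lower). In Diff cells against GSCs, 22 rose and 17 fell, 41.9% beside 34.8%. Among protein-coding genes with a mean above 5 TPM outside chromosome 10, the shares called in the 3 comparisons were 62.3%, 51.8% and 47.8%.

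The partners of MASTL were also lower than in U87, and a link of their falls to that of MASTL was not tested. ENSA and ARPP19, the substrates through which Greatwall inhibits PP2A, and PPP2R2A, the B55 alpha subunit of that phosphatase, all fell in both irradiated lines. These are only 3 genes, and of all genes tested 23.3% were called lower in GSCs and 20.5% in Diff cells. ARPP19 differed from U87 by -1.08 in GSCs (adjusted p = 0.00025 from limma) and -1.16 in Diff cells (adjusted p = 0.000215 from limma), PPP2R2A by -0.78 and -1.19, and ENSA by -0.47 and -0.29. MCM10 had 11 partners, the MCM2 to MCM7 helicase subunits, CDC45 and the GINS subunits. Of these, 4 rose and 1 fell in GSCs, and 4 rose and 0 fell in Diff cells. Among all genes tested, 48.6% and 39.4% were called in these comparisons, so the counts were near the background. MCM7 was higher by 0.58 in both lines (adjusted p = 0.00129 and 0.00169 from limma). It lies on chromosome 7, whose median protein-coding gene was above U87 by 0.47 in GSCs and 0.48 in Diff cells. GINS2 fell by 0.54 in GSCs. SUV39H1, the paralog of SUV39H2, differed by -0.08 (adjusted p = 0.532 from limma) in GSCs and 0.05 (adjusted p = 0.719 from limma) in Diff cells.

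The kinesin-1 paralogs and light chains that work with KIF5B were split. KLC4 rose by 1.32 in GSCs (adjusted p = 5.63e-05 from limma) and 0.68 in Diff cells, whereas KLC1 fell by 0.30 and by 0.47 and KLC2 fell by 0.39 and by 0.51. KIF5C rose by 0.34 in GSCs and KIF5A by 0.26 in Diff cells. Of the 6 partners of ABI1, its paralog included, 1 rose and 2 fell in GSCs, and 0 rose and 4 fell in Diff cells. Among all genes tested, 25.3% rose and 23.3% fell in GSCs, and 18.9% rose and 20.5% fell in Diff cells. Of the WAVE complex partners of ABI1, BRK1 fell by 0.76 in GSCs and fell by 0.66 in Diff cells, and WASF1 rose by 0.53 in GSCs. ABI2, the paralog of ABI1, fell by 0.46 and by 0.50. PARD6B, a partner of PARD3, rose by 1.46 in GSCs (adjusted p = 3.38e-05 from limma) and 0.63 in Diff cells.

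Among the partners of OPTN, the autophagy receptors SQSTM1, TAX1BP1 and NBR1 rose in both lines. SQSTM1 rose by 0.65 in GSCs (adjusted p = 0.00385 from limma) and 1.09 in Diff cells (adjusted p = 0.000256 from limma), and TAX1BP1, which also lies on chromosome 7, by 0.50 and 0.68, beside that chromosome's medians of 0.47 and 0.48. The kinase TBK1 differed by 0.24 and 0.19 and did not pass the test. UPF3A, which binds UPF2, fell by 0.52 in GSCs and by 0.44 in Diff cells, and UPF1, the helicase of the same pathway, rose by 0.47 in Diff cells. UPF3B, another partner of UPF2, differed by -0.29 in GSCs, not called, and rose by 0.39 in Diff cells (adjusted p = 0.049 from limma). KLF4, a relative of KLF6, fell by 1.36 in GSCs and by 1.72 in Diff cells (adjusted p = 0.000375 and 0.000122 from limma). EIF2S2, the beta subunit of the initiation factor that CDC123 helps to assemble, fell by 1.14 and by 0.91. The largest difference among partners was that of PLXDC1, with 2.67 TPM in U87, 22.6 TPM in GSCs and 39.2 TPM in Diff cells, whose paralog on the list, PLXDC2, was near 0 throughout.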

How the data were processed

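The authors aligned RNA-seq reads of 9 libraries to GRCh38 and deposited log2(TPM + 1) values for 60606 genes. The submitters' processing notes name FastQC 0.11.9, Trimmomatic 0.39, HISAT2 2.2.1, featureCounts 2.0.5 and R 4.2.0. The annotation and strand setting are not given in the sources used here. The sample records describe removal of ribosomal RNA and directional libraries, whereas the study's methods describe oligo(dT) enrichment. Back-transformed columns summed to 1000000, so depth is not kept.

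Groups were taken from the sample titles. Genes with a mean above 1 TPM (22909) entered 1 linear model of the 3 groups, with a moderated variance that follows the mean (limma 3.58.1, R 4.3.3), with Benjamini-Hochberg adjustment over all of them and calls at an adjusted p below 0.05; the scripts were tested on simulated data. The 50 genes, the partner genes, the role groups and the marker lists were chosen with earlier results of these data known. Positions came from GENCODE 29, which matched 53591 genes. Genes given in full were the 3 with the highest mean, the 4 with the largest and the 4 with the smallest difference from U87, up to 4 called in each direction between Diff cells and GSCs, and 6 with known roles. Named partners were those of these genes and the 8 with the largest change. The values of 1 such partner are not reported here. The 5 other 10p genes with the largest fall and the 5 with the smallest fall or a rise were named. Alternatives changed the pseudocount, filter, scaling, fit, threshold and libraries. Figures were made with Python 3.11.15 and matplotlib 3.10.9.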

Additional observations from a re-analysis of the deposited data

Results flagged for a closer look

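Results are given here because the difference from U87 was not the same in Diff cells and GSCs, by limma's test of Diff cells against GSCs over all genes tested. The difference from U87 in Diff cells minus that in GSCs, on the log2(TPM + 1) scale, was 1.09 for BEND7, 0.62 for UPF2, 0.56 for KIF5B, 0.50 for RSU1, 0.45 for SEPHS1, 0.44 for DNAJC1, 0.27 for FBH1 and 0.23 for OPTN. It was -0.54 for MASTL, -0.52 for RAB18, -0.49 for SVIL, -0.42 for ABI1, -0.40 for PARD3, -0.39 for STAM, -0.36 for NSUN6, -0.24 for ARHGAP21 and -0.22 for KLF6. The share of the 46 genes so called, 37.0%, was near the 34.8% of all genes tested. BEND7 entered the test through its level in U87, and the calls of FBH1 and KLF6 were lost in most alternative settings.

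Of the 145 genes of 10p that were tested and are not on the list, the same test called 42, 10 higher and 32 lower in Diff cells, which is 29.0% beside 34.8% of all genes tested. Among the 10 of them named in the report, it called FZD8 at -2.29, IDI1 at -1.71, JCAD at -0.61 and AK3P5 at -0.49. IDI1 is the gene whose direction against U87 differed, since all 3 GSCs libraries lay above and all 3 Diff libraries below the U87 libraries.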

How the results depend on the processing

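Both counts of genes below U87 stayed between 38 and 45 in GSCs and between 37 and 45 in Diff cells under every alternative, and no median changed sign. A pseudocount of 5 gave medians of -0.64 in GSCs and -0.67 in Diff cells for the listed genes, and of -0.55 and -0.68 for the other 10p genes. A pseudocount of 0.1 gave -1.02 for the other 10p genes in Diff cells. The median of the listed genes in Diff cells was -0.80 without a filter and -0.80 at a mean above 5 TPM, where more or fewer genes entered. Leaving out 1 library gave medians of -0.96 to -0.82 in GSCs and -0.91 to -0.84 in Diff cells for the listed genes, and -0.97 to -0.87 in Diff cells for the other 10p genes.

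Between Diff cells and GSCs, 11 to 16 of the listed genes were called with 1 library left out, the fewest without Diff replicate 2. Asking also for an absolute log2 difference over 1 left 1 listed gene, and 8, 5 and 2 partner genes in GSCs against U87, Diff against U87 and Diff against GSCs. Median-ratio scaling, quantile normalization and TPM without mitochondrial genes and RN7SL1 moved the share of higher calls among listed genes; the last gave 10 higher and 7 lower. The difference for PFKP, Diff minus GSCs, was 0.09 and not called; it ranged from -0.0397 to 0.195 with 1 library left out and was negative without GSCs replicate 3, where the cause was not tested. Same-numbered libraries of different groups did not deviate together (correlations of -0.09 to 0.09), so the numbers do not pair them. With the replicate number as a block, 14 listed genes were called, and 48, 48 and 35 partner genes.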
